A study of Homo sapiens with 6 samples.

Results

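The genes described here are 10 transcription factors and effectors of the ATF4-CHOP stress pathway: ATF4, DDIT3 (which encodes CHOP), ATF3, ATF5, CEBPB, CEBPG, TRIB3, PPP1R15A, PPP1R15B and NUPR1. They were taken by name from the 54308 genes listed in an RNA sequencing table, and 9 of them were among the 19306 genes that could be tested. The genes were chosen by pathway with their log2 signals in this same comparison of KO and VC libraries already known, so those signals are given as a description, no p-value is printed for them, and the counts of calls below do not count as a test of them. Of the 9 tested genes, 7 were called higher in the CNTNAP4 KO libraries (adjusted p under 0.05, limma) and 1 lower, beside 13.1% and 19.8% of all tested genes. DDIT3 was 20.3-fold and TRIB3 4.96-fold higher, ATF5 was 1.99-fold lower, and PPP1R15B, which was not called, was 1.13-fold higher.

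The pathway begins when a kinase phosphorylates the translation factor eIF2alpha. Bulk protein synthesis then slows, while the mRNA of ATF4, whose upstream reading frames normally hold its translation back, is translated more. ATF4 is a basic leucine zipper (bZIP) factor that binds DNA as a dimer, often with a C/EBP protein, and raises genes of amino acid supply and stress defence, DDIT3 among them. Part of the ATF4 response is therefore set at the level of protein, which RNA sequencing does not see.

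The samples were 143B cells, a human osteosarcoma line, in 2 groups of 3 libraries. The vector control (VC) cells had received a vector plasmid and the KO cells a plasmid for CRISPR/Cas9 deletion of CNTNAP4, a neurexin-family receptor, and the labels give 48 h of transfection for both. The study's methods differ from the labels in giving a longer transfection, and state that the cells were then sorted as single cells, that colonies were expanded, and that 3 independent RNA samples were prepared from clonal cells. The clone behind each KO library is not stated in the sources used here, so the spread between libraries may be that of repeated samples of 1 clone, and a difference between clones cannot be told apart from an effect of the deletion.

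The deposited values are log2 signals, equalized between the libraries. The linear unit under the logarithm is not named, so single genes were compared between groups only within a gene, and a sum over a marker list weighs its genes by that unnamed unit. Each library had a value for between 20333 and 21041 genes, ranging from -10.87 to 12.04 with a median of 0.62, and its read depth is unknown. CNTNAP4 itself had a value in 1 of the 6 libraries, VC replicate 3 (-7.18), so the deleted gene could not be used to check the labels. Of 9 osteoblast lineage and mesenchymal markers, 6 had a value in all 6 libraries: RUNX2, ALPL, COL1A1, COL1A2, SPARC and VIM. IBSP had none, SP7 was missing from some, and BGLAP had values in KO replicates 1 and 2 only. COL1A2 was low and lower in KO (means of -4.81 in VC and -5.62 in KO), while the others with all values had higher means in KO. The summed linear signal of the list was 1380 to 1560 in VC and 1670 to 2080 in KO. The leukocyte list of 4 genes had a summed linear signal of 21.7 to 23.0 in VC and 52.3 to 88.1 in KO. In this list CD68, which encodes a lysosomal protein, had a mean log2 signal of 4.47 in VC and 6.12 in KO, and PTPRC, the pan-leukocyte marker, had means of -4.62 and -5.80. The sums were 0.0551 to 0.0883 and 0.0561 to 0.109 for 4 endothelial genes, and 3.09 to 3.49 and 1.79 to 2.24 for 4 epithelial genes. The epithelial sum was almost all EPCAM, with mean log2 signals of 1.71 in VC and 1.04 in KO. KRT20 had no value, CDH1 had a value in 1 library, and KRT5 had low values in VC only.

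ATF4 is a factor downstream of all eIF2alpha kinases. Its log2 signal, given here and below in the order of the replicate numbers, was 5.37, 5.35 and 5.35 for VC and 6.46, 6.95 and 6.67 for KO. The VC libraries lay almost on top of each other and every KO library was above them, by at least 1.09. The means were 5.36 ± 0.014 and 6.7 ± 0.25 (SD, n = 3 in each group), a log2 difference of 1.34 (SE 0.14) or 2.53-fold. In such bulk samples, more RNA in every cell and more cells with the transcript cannot be told apart. ATF4 (chr22:39520559-39522686, RefSeq, GRCh38.p14) lies on a chromosome whose 452 tested genes had a median log2 difference of 0.29, in comparison to -0.12 over all 18227 tested genes with a chromosome. On chromosome 22, 171 genes were called higher in KO and 15 lower, and 40 had a larger difference than ATF4. The difference of ATF4 minus the median of its chromosome was 1.05, and the part of the chromosome in the result was not tested. The 4 processed copies of ATF4 in the table had no value in any library.

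DDIT3 encodes CHOP, a C/EBP-family protein that is scarce in unstressed cells and takes part in the cell death response to lasting stress. The log2 signals were 1.47, 1.57 and 1.36 in VC and 5.58, 6.34 and 5.52 in KO, so the groups stood 3.95 apart at their nearest libraries. The means were 1.47 ± 0.1 and 5.81 ± 0.46 (SD, n = 3), a log2 difference of 4.34 (SE 0.24). Only 8 of the 19306 tested genes had a larger difference, and 3 of the 9653 in the upper 50% of mean signal. On chromosome 12 no tested gene of 914 exceeded it. When 1 was added to each linear signal before the logarithm, the difference was 3.92. The annotated span of DDIT3 (chr12:57516588-57520517) shares 2769 bases with LOC128125814, for which no value was analysed here, and 97 bases with MIR616, which had no value in any library. It also shares 65 bases with MARS1, the methionyl-tRNA synthetase gene, whose log2 signals were 5.83, 5.81 and 5.86 in VC and 6.29, 6.66 and 6.38 in KO. MARS1 thus differed by 0.61 (SE 0.11). The library kit keeps strand, but whether the counting used it is not given in the sources used here, and the part of the overlap in the result was not tested.

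ATF3 is a bZIP factor induced by many stresses that forms dimers with JUN and other partners. Its log2 signals were -0.33, -0.36 and -0.67 in VC and 1.78, 2.19 and 1.13 in KO. The groups did not overlap, although the KO libraries spread over 1.05, the widest range of the tested genes described here. The means were -0.45 ± 0.19 and 1.7 ± 0.53 (SD, n = 3), and the log2 difference was 2.16 (SE 0.29) or 4.45-fold. After adding 1 to each linear signal, the difference was 1.31. ATF3 spans chr1:212565407-212620777.

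ATF5, a bZIP factor whose translation is also controlled through upstream reading frames and which has been tied to the mitochondrial stress response, went the other way. Its log2 signals were 3.46, 3.3 and 3.46 in VC and 2.63, 2.03 and 2.58 in KO. Every KO library was below every VC library, by at least 0.67. The means were 3.41 ± 0.092 and 2.41 ± 0.34 (SD, n = 3), a log2 difference of -0.99 (SE 0.18). Of all tested genes, 1774 had a lower difference. ATF5 (chr19:49928906-49933935) shares 599 bases with NUP62 and IL4I1, neither of which passed the test: NUP62 differed by -0.39 (adjusted p = 0.0787, limma) and IL4I1 by 0.23 (adjusted p = 0.432, limma).

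CEBPB and CEBPG are C/EBP proteins that pair with ATF4, CEBPB also serving as a factor of inflammation and differentiation and CEBPG lacking a strong activation domain of its own. The log2 signals of CEBPB were 4.67, 4.42 and 4.61 in VC and 6.12, 6.68 and 6.05 in KO, with means of 4.57 ± 0.13 and 6.28 ± 0.35 (SD, n = 3). The groups stood 1.38 apart and the log2 difference was 1.71 (SE 0.19) or 3.28-fold. Those of CEBPG were 3.58, 3.65 and 3.62 in VC and 4.54, 5.09 and 4.69 in KO, with means of 3.62 ± 0.032 and 4.77 ± 0.29 (SD, n = 3). Here the nearest libraries were 0.89 apart and the log2 difference was 1.16 (SE 0.16) or 2.23-fold. CEBPB (chr20:50190583-50192690) overlaps CEBPB-AS1 by 1487 bases, and this antisense transcript was also higher, with log2 signals of -0.79, -1.27 and -0.84 in VC and 0.42, 0.29 and 0.077 in KO. The difference of CEBPB-AS1 was 1.23 (SE 0.17, adjusted p = 0.0112, limma), and reads of the pair cannot be told apart if strand was not used. CEBPG lies at chr19:33373709-33382686.

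TRIB3 is a pseudokinase of the Tribbles family that is induced by ATF4 and CHOP and holds back both ATF4 and AKT. Its log2 signals were 3.26, 3.03 and 3.23 in VC and 5.08, 5.95 and 5.41 in KO. All KO libraries were above the VC libraries, by at least 1.82. The means were 3.17 ± 0.13 and 5.48 ± 0.44 (SD, n = 3), a log2 difference of 2.31 (SE 0.23). TRIB3 (chr20:380760-397559) and CEBPB lie on chromosome 20, whose 503 tested genes had a median difference of -0.24, with 53 called higher and 179 lower. Only 3 genes of that chromosome had a larger difference than TRIB3 and 11 a larger one than CEBPB. Relative to the median of the chromosome the differences were 2.55 for TRIB3 and 1.96 for CEBPB.

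PPP1R15A (GADD34) and PPP1R15B (CReP) are the paired regulatory subunits that bring protein phosphatase 1 to eIF2alpha and so end the response, PPP1R15A as the stress-induced form and PPP1R15B as the constitutive one. The log2 signals of PPP1R15A were 5.17, 5.14 and 5.19 in VC and 6.45, 6.91 and 6.5 in KO, a difference of 1.46 (SE 0.14) or 2.74-fold between means of 5.16 ± 0.026 and 6.62 ± 0.26 (SD, n = 3). Those of PPP1R15B were 3.17, 3.27 and 3.17 in VC and 3.41, 3.4 and 3.33 in KO, with means of 3.2 ± 0.059 and 3.38 ± 0.046 (SD, n = 3). The inducible subunit was clear of the VC values by 1.26, and the constitutive subunit by only 0.056. The log2 difference of PPP1R15B was 0.18 (SE 0.07), and that of PPP1R15A was larger by 1.28. PPP1R15B was not among the genes called, and 5466 genes had a larger difference. With 1 added to each linear signal it was called higher, at a difference of 0.16. With each library centred on its median the difference of PPP1R15B was 0.26. PPP1R15A lies at chr19:48872421-48876058 and PPP1R15B at chr1:204395826-204411817.

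NUPR1, a small chromatin-associated stress protein, had no value in any VC library and log2 signals of -5.11, -4.04 and -4.24 in KO replicates 1, 2 and 3 (chr16:28532708-28538974). A missing value cannot be read as a level, so NUPR1 was not tested and no fold was computed. It was 1 of 71 genes with a value in all KO libraries and in no VC library, and 122 genes had the reverse pattern.

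**Figure D1:**
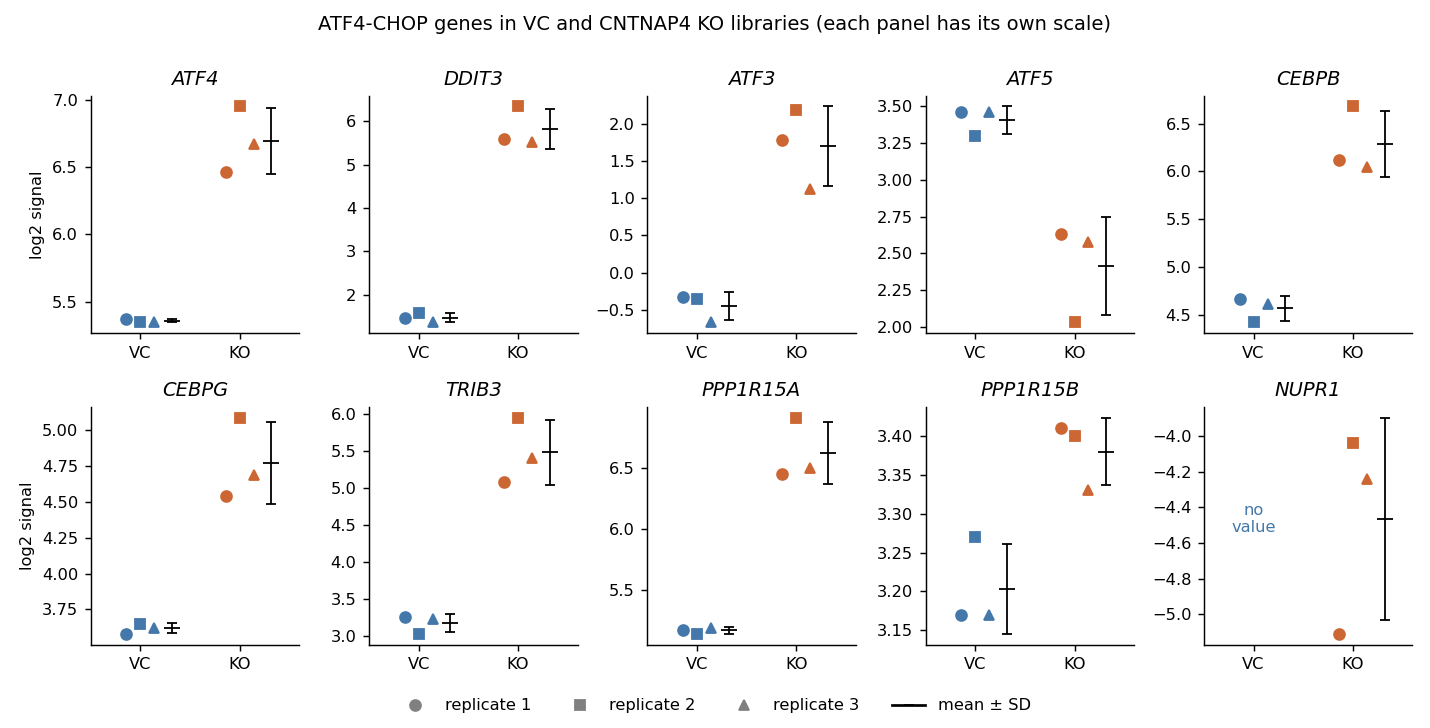
Log2 signal of each of the 10 genes (vertical axis, own scale in each panel) in the VC and KO libraries, with replicate number by symbol and the group mean ± SD as a bar. In 8 of the 9 genes with 6 values all KO libraries lie above all VC libraries, in ATF5 they lie below, and NUPR1 has values in KO only.

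Counted against the whole table, 8 of the 9 tested genes were called, and 32.9% of all tested genes were called either way. Since the choice of genes rested on this contrast, nothing is read from that count. The call of ATF5 was lost when VC replicate 1, 2 or 3 was left out (0 called lower in each case), and the 7 genes called higher numbered 7 in all 6 fits with a library left out. Groups that did not overlap were seen with KO higher in 8 and KO lower in 1 of the 9 genes, and over the 17698 genes with 6 values in 22.6% and 36.7%, or 59.3% either way. The smallest two-sided p that an exact permutation test of 3 against 3 libraries can give is 0.1. The median log2 difference of the 9 genes was 1.46, beside -0.13 for all tested genes.

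**Figure D2:**
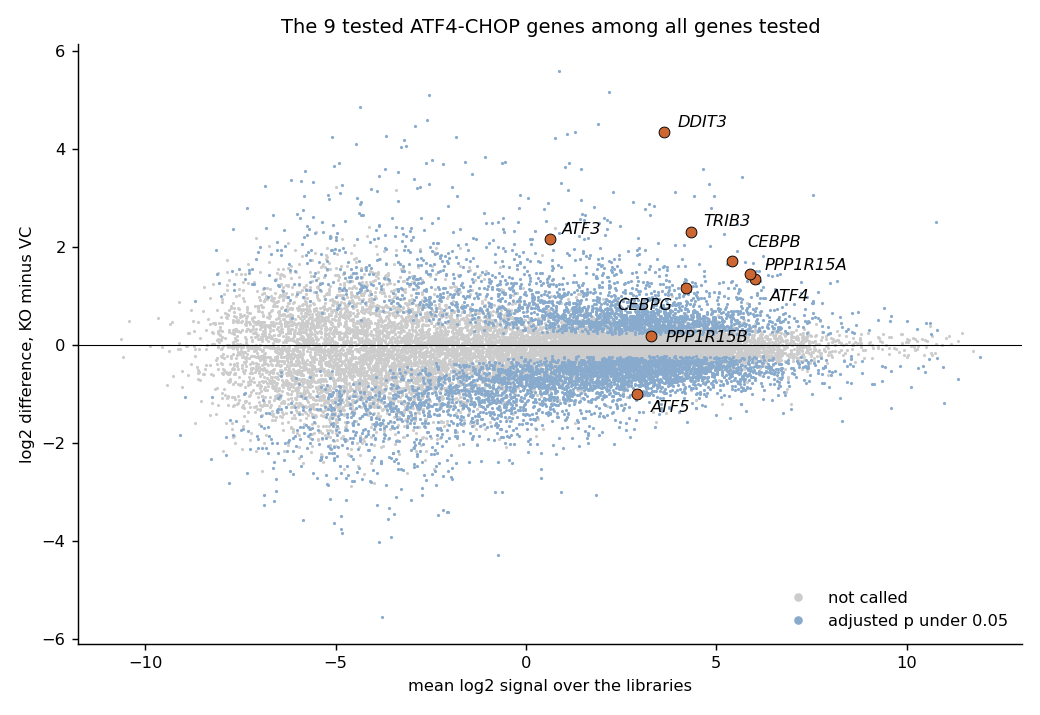
Log2 difference (KO minus VC, vertical axis) against the mean log2 signal over the libraries (horizontal axis) for the 19306 tested genes, grey where not called and blue where the adjusted p was under 0.05, with the 9 tested ATF4-CHOP genes in orange. DDIT3 (4.34) stands highest of the 9, PPP1R15B (0.18) is near 0 and ATF5 (-0.99) is below it.

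The KO libraries did not differ from VC to the same extent. KO replicate 2 was farthest from the VC mean in 8 of the 9 tested genes, in ATF5 downwards and in the 7 genes called higher upwards, and KO replicate 1 was farthest in PPP1R15B. This order was shared by the table as a whole, since KO replicate 2 was farthest in 79.1% of the 2448 genes with 6 values that were called higher, and in 75.4% of all 6166 called genes with 6 values. The median gap between KO replicates 2 and 1 was 0.55 in the 7 genes called higher and 0.27 in all genes called higher. Without KO replicate 2 the log2 difference was 4.08 for DDIT3, 2.08 for TRIB3, 1.91 for ATF3, 1.51 for CEBPB, 1.31 for PPP1R15A, 1.21 for ATF4, 1.0 for CEBPG and -0.8 for ATF5. Each kept its direction. The VC libraries spanned between 0.024 and 0.34 in these genes and the KO libraries between 0.085 and 1.05, and the KO range was the wider one in 8 of the 9, as it was in 70.5% of all genes with 6 values.

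**Figure D3:**
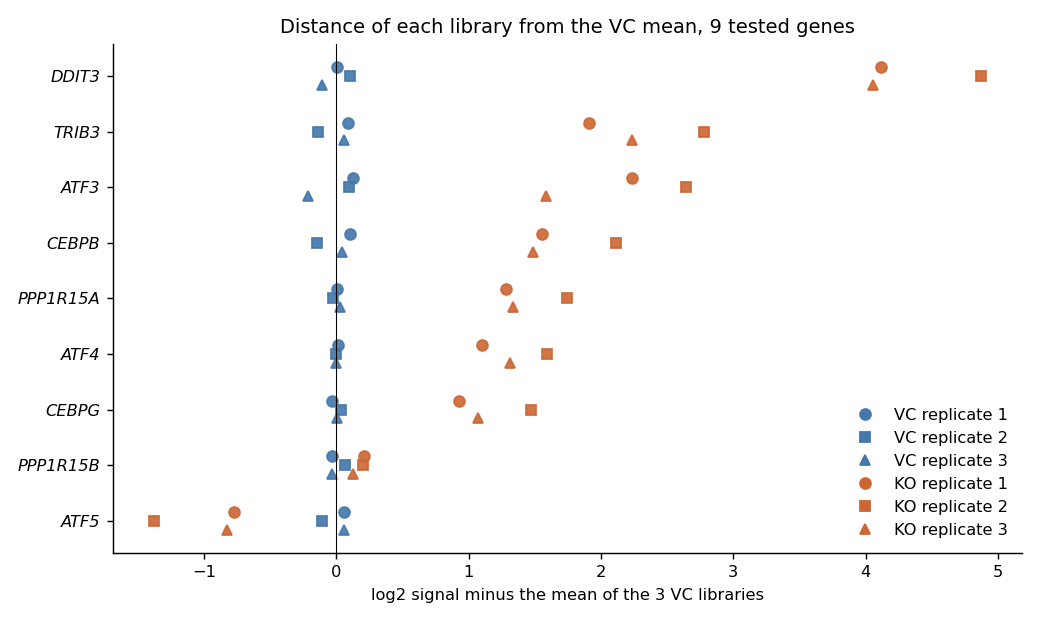
Log2 signal of each library minus the mean of the 3 VC libraries (horizontal axis) for the 9 tested genes (rows), with VC in blue, KO in orange and the replicate number by symbol. KO replicate 2 is the outermost point in every row except PPP1R15B.

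The genes whose profile over the 6 libraries lay nearest to DDIT3 and ATF4 were sought among 9652 other genes with 6 values and a mean in the upper 50%, after each gene was centred on its own mean. The 5 nearest to DDIT3 by root mean square distance in log2 units were IL1A (0.24), an inflammatory cytokine, GDF15 (0.3), a stress hormone of the TGF-beta family, the long noncoding RNA LINC02806 (0.33), MMP10 (0.36), a matrix metalloproteinase, and CTH (0.38), the enzyme that makes cysteine from cystathionine. The 5 nearest to ATF4 were GFPT2 (0.044), a rate-setting enzyme of the hexosamine pathway, ING4 (0.052), a chromatin reader, HEY1 (0.056), a Notch target, AARS1 (0.063, listed as AARS), the alanyl-tRNA synthetase, and NRP2 (0.065), a semaphorin and VEGF co-receptor. The signals were centred but not scaled, so a near gene is one with a KO minus VC difference of similar size. The differences were 3.59 to 4.51 for the genes nearest to DDIT3 and 1.27 to 1.42 for those nearest to ATF4. These distances are descriptions over 6 libraries that share their order of KO replicates, and shared regulation was not tested.

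Promoter sequences were then read for motifs of the pathway, because genes that ATF4 or its relatives bind often carry them close to the start site. The windows were 300-base stretches of the RefSeq table (GRCh38.p14), from 250 bases before to 50 after a start site, with 1 or more windows per gene, and both strands were searched. The C/EBP-ATF response element (CARE, searched as TGATGNAA) was found in ATF3, CEBPG and PPP1R15B, 3 of the 9 genes with a window, and in 4.46% of 27305 genes. These shares are per gene, and a gene with more windows has more chances of a match. The 9 genes had 1 to 3 windows each, and there were 35116 windows for the 27305 genes, so the shares are not matched for length searched. The cyclic AMP response element (CRE, searched as TGACGTCA) was found in PPP1R15A and in 2.25% of genes, and the endoplasmic reticulum stress element (ERSE, whose full consensus was searched) in none of the 9 and in 0.0916% of genes. The motifs do not overlap in these genes. Only these letters and windows were searched, so a gene without a match, such as DDIT3 or TRIB3, is not shown to lack such elements. The stretches around the 4 matches are shown because they hold the pathway's motifs in members that differed strongly (PPP1R15A, CEBPG, ATF3) and in the one that hardly did (PPP1R15B). They are written 5′ to 3′ on the strand of the gene, with the match in capitals.
PPP1R15A: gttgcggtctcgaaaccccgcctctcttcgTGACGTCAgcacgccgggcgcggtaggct
CEBPG: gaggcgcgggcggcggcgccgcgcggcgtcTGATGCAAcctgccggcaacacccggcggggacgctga
ATF3: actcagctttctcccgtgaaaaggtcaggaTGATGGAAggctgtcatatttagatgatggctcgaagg
PPP1R15B: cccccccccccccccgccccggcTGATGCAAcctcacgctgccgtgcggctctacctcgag
The PPP1R15A stretch is chr19:48872333-48872391 on the plus strand, with its CRE at -58 from the start site. The CEBPG stretch is chr19:33374041-33374108 (plus) with the CARE at -42. This offset is from a start site inside the annotated span of CEBPG, which begins at chr19:33373709, so the stretch lies within the gene. The ATF3 stretch is chr1:212565186-212565253 (plus) with the CARE at -191, and that of PPP1R15B is chr1:204412007-204412067 (minus) with the CARE at -227. In PPP1R15A, ATF3 and PPP1R15B the start site used is the outer start of the span. None of the 4 stretches lies in an annotated exon. The CARE letters were the same in CEBPG, which differed by 1.16, and in PPP1R15B, which differed by 0.18. The position of the match differed between these 2 genes, and a link between a match and the KO minus VC difference was not tested. A match is a description of the letters and no evidence of binding.

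The other genes of the pathway were described in 7 lists of 130 genes, of which 126 were tested. In these lists 80 genes were called higher in KO and 11 lower, beside the 13.1% and 19.8% of all tested genes, and the median log2 difference was 0.61. The number called higher was 34, 43, 30 and 47 without VC replicate 1, 2 and 3 and KO replicate 3, and the number called lower was 4, 6, 3 and 6 in the same order and 18 without KO replicate 1. The lists, too, were written with earlier results of these data known. Their counts, adjusted p-values and leave-out results are therefore a description and not a test of the pathway. All adjusted p-values below are from limma with Benjamini-Hochberg adjustment over all tested genes.

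Among the eIF2alpha kinases and eIF2 factors, 4 of 17 genes rose, 3 fell and 10 did not pass the test, with a median of -0.054. EIF2AK3 (PERK), the kinase of the endoplasmic reticulum, had log2 signals of 1.4, 1.48 and 1.31 in VC and 1.94, 2.31 and 2.03 in KO and rose by 0.7 (SE 0.12, adjusted p = 0.0157). EIF2AK4 (GCN2), the kinase that senses uncharged tRNA, fell by 0.51 (SE 0.088, adjusted p = 0.0161) from 4.82 in each VC library to 4.43, 4.17 and 4.33. EIF2AK1 (HRI), which relays mitochondrial and haem stress, fell by 0.55 (SE 0.064, adjusted p = 0.0095), and EIF2S1, which encodes eIF2alpha itself, fell by 0.7 (SE 0.1, adjusted p = 0.0123). EIF2AK2 (PKR) differed by -0.29 (SE 0.091, adjusted p = 0.0619) and did not pass the test, although its groups did not overlap. The RNAs of the kinases thus did not all move in one direction, and EIF2AK3 was the only kinase with a higher mean in KO. DNAJC3 (P58IPK), an endoplasmic reticulum co-chaperone known as an inhibitor of PERK, rose by 1.49 (SE 0.23, adjusted p = 0.0137), and DELE1, the mitochondrial activator of HRI, rose by 0.65 (SE 0.13, adjusted p = 0.0239). The fourth gene that rose was IMPACT, an inhibitor of GCN2. The counts were fragile: higher calls numbered 0 without VC replicate 1 or 3, 2 without VC replicate 2 and 1 without KO replicate 3, and lower calls 2, 2, 1 and 2 without VC replicates 1, 2 and 3 and KO replicate 3 and 7 without KO replicate 1. The call of EIF2AK1 held in all 6 of these fits. That of EIF2AK3 was lost without VC replicate 1 (adjusted p = 0.0589), VC replicate 3 (0.0622) or KO replicate 3 (0.0502), and that of EIF2AK4 without VC replicate 1 (0.0619), VC replicate 2 (0.0518), VC replicate 3 (0.064) or KO replicate 3 (0.055). The call of EIF2S1 was lost without VC replicate 3 (0.0508), that of DNAJC3 without VC replicate 1 (0.0533) or 3 (0.0547), and that of DELE1 without VC replicate 1 (0.0676), 2 (0.0687) or 3 (0.0718) or KO replicate 3 (0.0735).

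The IRE1 and ATF6 arms of the unfolded protein response run beside the PERK-ATF4 arm and raise chaperones and degradation factors. Of their 20 genes 18 rose, none fell, and ATF6 and MBTPS2 did not pass the test, with a median of 1.29. HSPA5 (BiP), the main chaperone of the endoplasmic reticulum, had log2 signals of 6.0, 6.03 and 6.02 in VC and 8.51, 9.48 and 9.2 in KO and rose by 3.05 (SE 0.26, adjusted p = 0.0064). XBP1, the factor whose mRNA is spliced by IRE1, went from 4.33, 4.21 and 4.36 to 6.46, 7.18 and 6.66 and rose by 2.47 (SE 0.2, adjusted p = 0.00603). The largest differences of the list were those of SDF2L1 (3.59, SE 0.35, adjusted p = 0.00789), HERPUD1 (3.29, SE 0.25, adjusted p = 0.00592) and DNAJB9 (3.13, SE 0.27, adjusted p = 0.00675), which assist folding or degradation in the endoplasmic reticulum. After adding 1 to each linear signal, that of DNAJB9 was 2.54. These 5 calls held with any 1 library left out, while the list's count was 7, 8, 5 and 7 without VC replicate 1, 2 and 3 and KO replicate 3. The ERSE was found in the windows of XBP1, HSPA5, HSP90B1, CRELD2 and CALR. They are 5 of the 106 list genes with a window, or 4.72%, beside 0.0916% of all genes with a window, and all belong to this list. The lists were made by known role and the windows were not matched, so this share is a description and enrichment was not tested.

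Amino acid synthesis and transport genes are the classical targets of ATF4. Of 19 such genes 17 rose, 1 fell (PSPH) and 1 did not pass the test (ALDH18A1), with a median of 1.09. ASNS, asparagine synthetase, went from 3.35, 3.45 and 3.47 in VC to 5.89, 6.93 and 6.54 in KO and rose by 3.03 (SE 0.27, adjusted p = 0.00722). CTH rose by 3.59 (SE 0.26, adjusted p = 0.00571) and SLC6A9, a glycine transporter, by 2.54 (SE 0.27, adjusted p = 0.00847). PSPH, which carries out the last step of serine synthesis, had 5.34, 5.34 and 5.27 in VC and 4.18, 4.07 and 3.96 in KO and fell by 1.25 (SE 0.083, adjusted p = 0.00571). It was the only gene of its list called lower, and its call held with any 1 library left out, as did those of ASNS, CTH and SLC6A9. After adding 1 to each linear signal, the difference was 2.56 for CTH and 1.87 for SLC6A9. The higher calls numbered 9, 10 and 8 without VC replicate 1, 2 and 3.

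Of 13 aminoacyl-tRNA synthetase and tRNA export genes, 10 rose, none fell, and IARS1, LARS1 and XPOT did not pass the test, with a median of 0.64. SARS1 rose by 1.51 (SE 0.16, adjusted p = 0.00874) and AARS1 by 1.42 (SE 0.17, adjusted p = 0.00963), the seryl and alanyl enzymes, and both calls held with any 1 library left out. CARS1, the cysteinyl enzyme, rose by 1.08 (SE 0.18, adjusted p = 0.015) and MARS1 by 0.61 (adjusted p = 0.0188). The call of CARS1 was lost without VC replicate 1 (0.0555), 2 (0.05) or 3 (0.0578), and that of MARS1 without VC replicate 1 (0.0664), 2 (0.0598) or 3 (0.0656) or KO replicate 3 (0.056). The list's count was 2, 3, 2 and 4 without VC replicate 1, 2 and 3 and KO replicate 3. CARE was found in 16 of the 106 list genes with a window (15.1%, beside 4.46% of all genes with a window), among them ASNS, AARS1, CARS1, MARS1, CHAC1, HERPUD1 and JDP2. Enrichment was not tested here either.

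Of 18 stress effectors downstream of ATF4 and CHOP, 15 rose, BCL2L11 fell, ERO1A did not pass the test and FGF21 was not tested, with a median of 1.64. GDF15 went from -0.64, -1.38 and -1.15 in VC to 2.68, 3.79 and 3.25 in KO and rose by 4.29 (SE 0.34, adjusted p = 0.00597). INHBE, an activin subunit, rose by 3.73 (SE 0.32, adjusted p = 0.00675), and CHAC1, which breaks down glutathione, by 3.64 (SE 0.35, adjusted p = 0.00789), from -0.63, -0.89 and -0.85 to 2.87, 3.5 and 2.16. After adding 1 to each linear signal, these differences were 2.82, 1.04 and 2.39. BCL2L11 (BIM), a pro-apoptotic BH3-only protein, had 1.24, 1.14 and 1.2 in VC and 0.71, 0.032 and 0.5 in KO and fell by 0.78 (SE 0.18, adjusted p = 0.0312). Its difference was -0.49 after that addition. The call of BCL2L11 was lost without VC replicate 1 (0.092), 2 (0.0778) or 3 (0.0901) or KO replicate 3 (0.0761). Of the others, GDF15, INHBE and CHAC1 kept their calls with any 1 library left out. The list's higher count was 10 without VC replicate 3.

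The bZIP partners and relatives of the 10 genes were more mixed, with 14 of 31 tested genes higher, 4 lower (CEBPA, DBP, ATF1 and FOSL2) and 13 not passing the test, and a median of 0.35. MAFF, a small MAF protein, rose by 1.61 (SE 0.16, adjusted p = 0.00815). JUNB and JDP2, both partners of the AP-1 family, each rose by 1.4 (SE 0.16, adjusted p = 0.00891, and SE 0.2, adjusted p = 0.0115). Within the C/EBP family, CEBPA had 1.09, 0.81 and 0.98 in VC and 0.062, -0.15 and 0.12 in KO and fell by 0.95 (SE 0.12, adjusted p = 0.00985), opposite to CEBPB and CEBPG. CEBPD had 2.34, 1.8 and 2.26 in VC and 2.9, 2.78 and 2.77 in KO and rose by 0.69 (SE 0.16, adjusted p = 0.0306). The calls of MAFF, JUNB, JDP2 and CEBPA held with any 1 library left out, but that of CEBPD was lost in 5 of the 6 fits, the exception being the one without VC replicate 2, with adjusted p up to 0.0784 without KO replicate 3. DBP fell by 0.49 (SE 0.08, adjusted p = 0.0149) and ATF1 by 0.39 (SE 0.1, adjusted p = 0.0425). The call of DBP was lost without VC replicate 1 (0.0505) or 3 (0.0588), and that of ATF1 in every such fit but the one without KO replicate 1 (up to 0.122 without VC replicate 1). Adding 1 to each linear signal gave differences of 0.85 for JDP2, -0.55 for CEBPA and -0.19 for DBP. The higher count was 5, 8, 5 and 8 without VC replicate 1, 2 and 3 and KO replicate 3, and the lower count 1, 2, 1, 7, 2 and 2 without VC replicates 1, 2 and 3 and KO replicates 1, 2 and 3.

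Among the relatives of the phosphatase subunits, TRIB3 and NUPR1, 2 of 9 tested genes rose, 2 fell and 5 did not pass the test (PPP1CA, PPP1CB, PPP1CC, FBXW11 and COP1), with a median of -0.028. The catalytic partners of PPP1R15A were thus among those that did not pass. TRIB1 had 3.73, 3.57 and 3.71 in VC and 4.09, 4.44 and 4.16 in KO and rose by 0.56 (SE 0.12, adjusted p = 0.0245), and TRIB2 rose by 0.39 (SE 0.099, adjusted p = 0.0359), beside the 2.31 of TRIB3. AKT1, a kinase that TRIB3 binds, fell by 0.57 (SE 0.087, adjusted p = 0.0134), and BTRC, a subunit of the ligase that degrades ATF4, fell by 0.59 (SE 0.15, adjusted p = 0.0393). Each of these calls was lost with some library left out: TRIB1 without any VC replicate (up to 0.0742) or KO replicate 3 (0.0646), TRIB2 in every such fit but the one without KO replicate 2 (up to 0.11), and BTRC without any VC replicate (up to 0.107) or KO replicate 3 (0.0728). The call of AKT1 held in only 3 of the 6 fits, and those that lost it included the fits without VC replicate 1 (0.0556) and 3 (0.0576). The higher count was 0 without any VC replicate or KO replicate 3 and 1 without KO replicate 1, and the lower count was 0 without VC replicate 1 or 3 and 1 without VC replicate 2 or KO replicate 3. NUPR2 had no value in any library.

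**Figure D4:**
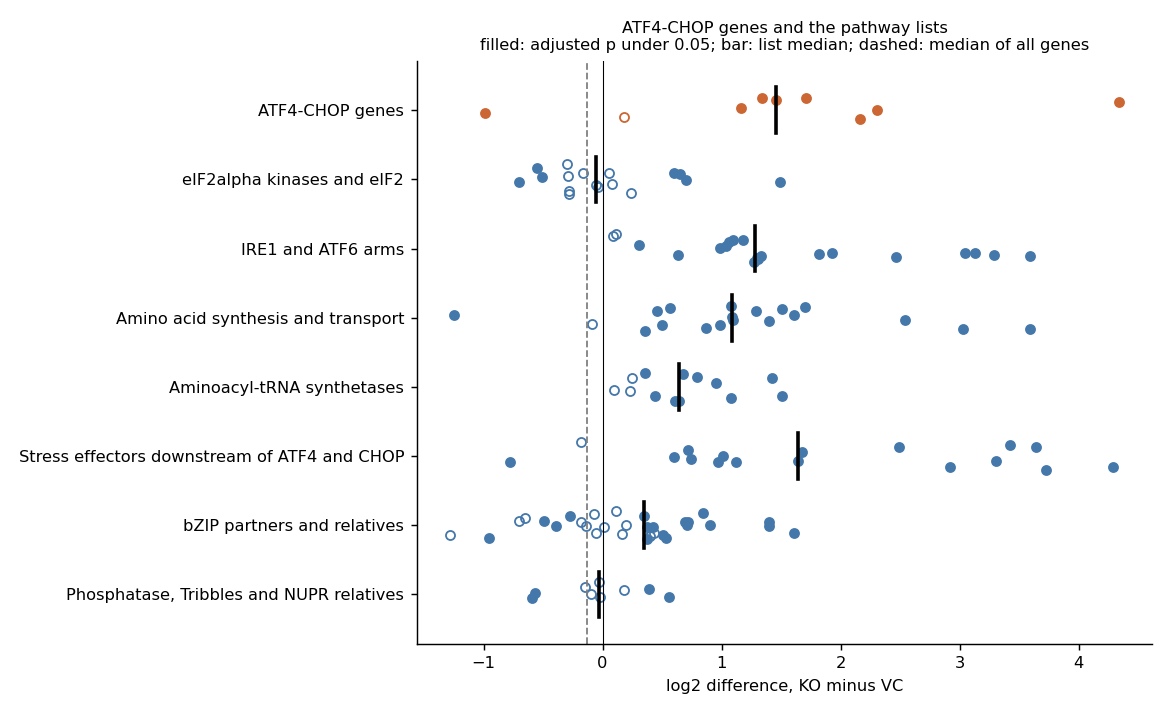
Log2 difference (KO minus VC, horizontal axis) of each tested gene of the ATF4-CHOP set (orange) and of the 7 pathway lists (blue, rows), filled where the adjusted p was under 0.05, with the list median as a black bar and the median of all tested genes (-0.13) as a dashed line. The stress effectors (median 1.64), the IRE1 and ATF6 arms (1.29) and amino acid genes (1.09) lie mostly to the right, while the eIF2alpha kinases (-0.054) and the relatives of the effectors (-0.028) are spread around 0.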

How the data were processed

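RNA of 3 VC and 3 CNTNAP4 KO libraries of 143B cells was sequenced by the authors, who deposited log2 signals per gene symbol. The submitters' processing notes name CASAVA, STAR, Partek and GRCh38.p13, and the study's methods name CLC Genomics and Partek software. Versions and the linear unit are not given in the sources used here. Library quartiles differ by at most 0.00016, as after quantile normalization. Depth is unknown, so no counting interval was computed.

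A gene needed 2 or more values per group, and groups were compared in R 4.3.3 with limma 3.58.1, two-sided and without further normalization. Genes with a Benjamini-Hochberg adjusted p under 0.05 were called. The fit was tested on simulated data. P-values measure only the spread between these samples. The 10 genes, the 7 lists and the markers were chosen with earlier results of these data known. Genes named from each list are up to 3 with the largest rise and 3 with the largest fall among called genes without overlap, and EIF2AK3, HSPA5, XBP1, ASNS, CHAC1, MARS1, CEBPD, TRIB1 and TRIB2. Others, named because a count was small, to complete the eIF2alpha kinases or because a motif was found, were chosen after their values were seen. Under older symbols 12 list genes were listed. Positions and promoters are from RefSeq (GRCh38.p14), which holds no window for NUPR1. Alternatives were the upper 50% of mean signal, genes with 6 values, median-centred libraries, 1 added to the linear signal, trended robust moderation, no moderation, a replicate block and each library left out in turn. Not every marker gene of the lists is reported here.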

Additional observations from a re-analysis of the deposited data

How the results depend on the processing

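The direction of the 9 tested ATF4-CHOP genes and of the list genes picked by size of change or by the fixed names was the same under every alternative tried, and the other list genes mentioned were not followed one by one. The 7 genes called higher were 7 throughout, or 8 with 1 added to the linear signal, and the 1 called lower was 0 to 1 with a library left out. Calls over all genes were 654 to 2940 higher and 569 to 5729 lower with a library left out, beside 2526 and 3828, and 2442 lower without moderation. In the 7 lists they were 30 to 79 higher and 3 to 18 lower, and 18 lower with 1 added. No pairing by replicate number was seen in the signals. Deviations from the group mean correlated at -0.0929, -0.092 and 0.034 between same-numbered VC and KO libraries over 8849 genes. Between differently numbered ones they correlated at -0.0649 to 0.101. Such values cannot show whether same-numbered libraries were prepared together. A replicate block left 661 genes called higher and 1079 lower, and 33 and 5 in the lists, while 7 and 1 of the ATF4-CHOP genes were called as before. The cause of these changes was not tested. Every fit with a library left out or a block had fewer residual degrees of freedom, and the counts moved both ways. Over all genes they were 2940 higher and 5729 lower without KO replicate 1, and 654 and 569 without VC replicate 3. Low signals limit several genes, among them ATF3, INHBE, GDF15, CHAC1, CTH and NUPR1, and no background level was given.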
